A study of Saccharomyces cerevisiae with 48 samples.

Results

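The protein folding chaperones examined here are 35 genes of Saccharomyces cerevisiae. They were chosen by name from the 6713 gene identifiers of the expression table, with earlier results of these data known. They comprise 23 genes of the cytosol, 5 of mitochondria and 7 of the endoplasmic reticulum (ER). RNA-seq was carried out on 48 cultures, 2 for each of 24 groups, made up of 3 wild strains, 4 media and the presence or absence of oxygen. WA (labelled NCY3290, a West African strain from bili wine), PAP (Y7568, a mosaic strain from papaya) and IL01 (a mosaic strain from soil) are 1 isolate each, so a difference between strains is a difference between these isolates. Cells grew in YPD, a rich glucose medium, or in YPD with 0.8% 1-butanol, 1% isobutanol or ethanol, which was given at 4% with oxygen and at 3% without it. Aerobic cultures were shaken in flasks, and anaerobic cultures were kept in suspension with a stir bar in an anaerobic chamber. All were started at an OD600 of 0.01 and collected at 0.5. Oxygen therefore cannot be told apart from agitation and handling in any comparison between the oxygen conditions. Below, oxygen stands for all of these. The design thus asks how each alcohol changes expression in each strain, and whether that change differs between the oxygen conditions.

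Chaperones bind unfolded or misfolded proteins and help them fold, refold or be cleared. Hsp70 proteins (SSA1 to SSA4 in the cytosol, SSC1 in mitochondria, KAR2 and LHS1 in the ER) hold and release unfolded segments with ATP, J-proteins (SIS1, YDJ1, APJ1, MDJ1, SCJ1, JEM1) bring them substrates, and nucleotide exchange factors (SSE1, SSE2, FES1) reset them. The disaggregase Hsp104 and its mitochondrial relative Hsp78 pull proteins out of aggregates, while the small heat shock proteins Hsp26 and Hsp42 keep aggregates in a form from which proteins can be recovered. Hsp90 (HSP82 and HSC82) and its co-chaperones (STI1, AHA1, HCH1, CPR6, SBA1) mature kinases and other clients, and the chaperonin HSP60 with HSP10 encloses proteins in the mitochondrial matrix. In the ER, PDI1 and EUG1 form and shuffle disulfide bonds and ERO1 passes the electrons on, in the end to oxygen. The remaining members are the sorting factors BTN2 and CUR1, which direct misfolded proteins to deposit sites, and the cyclophilin CPR1. Regulators known for many of these genes are Hsf1 at heat shock elements, Msn2 and Msn4 at stress response elements, and Hac1, made during the unfolded protein response, at its own element.

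Stretches of 120 bases upstream of 9 of the genes on which the results below turn are printed first, because they hold the letters of these elements. Each is from the R64 reference of strain S288c, read 5′ to 3′ on the strand of the gene, and capitals mark matches to the heat shock letters TTCNNGAA or GAANNTTC, to the stress response letters AGGGG or CCCCT, or to the unfolded protein response letters CAGCGTG or CACGCTG. The sequences of the 3 strains themselves were not read.
HSP26 (YBR072W, chrII:381566-381685, plus strand): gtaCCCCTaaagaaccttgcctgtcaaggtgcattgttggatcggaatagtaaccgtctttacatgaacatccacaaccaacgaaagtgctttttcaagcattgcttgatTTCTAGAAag
HSP42 (YDR171W, chrIV:806346-806465, plus strand): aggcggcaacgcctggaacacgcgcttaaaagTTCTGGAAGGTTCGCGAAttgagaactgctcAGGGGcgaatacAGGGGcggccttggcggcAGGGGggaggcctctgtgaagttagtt
HSP104 (YLL026W, chrXII:88294-88413, plus strand): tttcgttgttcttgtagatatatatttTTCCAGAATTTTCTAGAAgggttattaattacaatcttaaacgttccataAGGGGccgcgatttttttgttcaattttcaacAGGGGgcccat
HSP78 (YDR258C, chrIV:974398-974517, minus strand): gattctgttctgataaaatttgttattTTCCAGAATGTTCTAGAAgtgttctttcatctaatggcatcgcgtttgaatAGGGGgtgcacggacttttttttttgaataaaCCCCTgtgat
SSE2 (YBR169C, chrII:576165-576284, minus strand): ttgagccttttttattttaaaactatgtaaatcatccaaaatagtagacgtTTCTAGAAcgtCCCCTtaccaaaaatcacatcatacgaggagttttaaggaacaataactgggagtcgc
SSA4 (YER103W, chrV:364316-364435, plus strand): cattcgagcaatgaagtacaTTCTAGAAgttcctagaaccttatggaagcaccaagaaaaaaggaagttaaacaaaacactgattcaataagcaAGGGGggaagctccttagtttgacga
HSP82 (YPL240C, chrXVI:98755-98874, minus strand): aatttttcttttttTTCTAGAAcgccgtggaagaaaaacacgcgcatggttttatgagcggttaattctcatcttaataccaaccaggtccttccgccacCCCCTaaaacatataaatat
SSA1 (YAL005C, chrI:141680-141799, minus strand): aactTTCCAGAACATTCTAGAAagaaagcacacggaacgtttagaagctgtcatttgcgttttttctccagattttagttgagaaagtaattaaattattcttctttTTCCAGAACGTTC
KAR2 (YJL034W, chrX:381081-381200, plus strand): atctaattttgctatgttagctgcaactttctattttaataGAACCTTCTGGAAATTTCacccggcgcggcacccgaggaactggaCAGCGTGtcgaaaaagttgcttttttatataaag

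Across the window from 500 to 51 bases upstream of the start codon, searched on both strands, a heat shock match of 2 units was present in 26 of the 35 chaperone genes (74.29%), against 33.03% of the windows of 6019 protein-coding genes. The 3-unit form, in which GAANNTTC and TTCNNGAA overlap by their shared unit so that it always holds 2 matches of the 2-unit form, was present in 14 members (40.00%) and in 1.48% of all windows. The 2-unit form was found in 21 of 23 cytosolic, 3 of 5 mitochondrial and 2 of 7 ER genes, the last being KAR2 and SCJ1. The stress response letters were present in 15 members (42.86%) and 31.48% of all windows, and the unfolded protein response letters in 3 members (8.57%), KAR2, LHS1 and STI1, and 2.11% of all windows. HSP42, HSP104 and HSP78 each carry overlapping heat shock matches and more than 1 stress response match within the 120 bases shown. KAR2 carries the unfolded protein response letters beside overlapping heat shock matches. The stretches were printed because they hold such letters, so the density of matches within them is not an independent observation. EUG1, PDI1 and ERO1 have neither the heat shock nor the unfolded protein response letters in this window. A match is a run of letters and not a measured binding site.

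Every member had reads in every library, from 3 for HSP26 to 78290 for KAR2. The deposited unit is log2 RPKM (reads scaled to the length of the gene and to the reads of the library), and undoing the scaling returned whole reads, within 0.01 reads, for 95.1% to 95.4% of values per library, with 7480286 to 13938540 reads behind the scaling. The oxygen labels were checked with genes known to respond to oxygen: ANB1, DAN1, TIR1, AAC3 and HEM13 were higher in each of the 24 anaerobic libraries than in any aerobic one, and the respiratory genes NDE1, CYC1 and CYT1 were lower. The lowest anaerobic ANB1 was at 991 RPKM and the highest aerobic at 30.4, while CYC1 was at 327 to 1186 RPKM with oxygen and 0 to 2.35 without it. The replicates of IL01 in isobutanol without oxygen correlated least (r = 0.932 over 5427 genes), and the other 23 pairs lay between 0.963 and 0.992. The reads assigned to genes made up a median of 88.9% of the reads behind the scaling, but 60.2% in PAP YPD replicate 2, 62.2% in WA 1-butanol replicate 1 and 70.9% in WA isobutanol replicate 1, all without oxygen, and in no other library less than 77.7%. Results were therefore also computed without these 3 libraries and with the values scaled to the reads in genes, both chosen after the data were seen. Cultures are bulk samples, so fewer cells with a transcript and less of it per cell cannot be told apart. SSA1 and SSA2 share 45.79% and 46.02% of their 100-base words with another place in the genome, and the division of reads between them is uncertain.

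The chaperones differed widely in how far their levels ranged. The mean RPKM of HSP26 ran from 0.768 (IL01 in aerobic YPD) to 884 (IL01 in anaerobic isobutanol), where the replicates differed 30.4-fold. Over the 24 group means of log2 RPKM, HSP26 ranged 419-fold, HSP42 51.6-fold, SSE2 43.3-fold, HSP82 33.7-fold, HSP104 26.6-fold and EUG1 22.9-fold. At the other end, SSC1 ranged 1.85-fold, HSP60 2.08-fold, HSC82 2.14-fold and FES1 2.16-fold. The median SD of the group means on the log2 scale was 0.77 for the 7 ER genes, 0.48 for the 23 cytosolic and 0.32 for the 5 mitochondrial genes, beside 0.50 over the 5704 genes whose mean RPKM reached 1. The heat map of group means shows these patterns side by side.

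**Figure D1:**
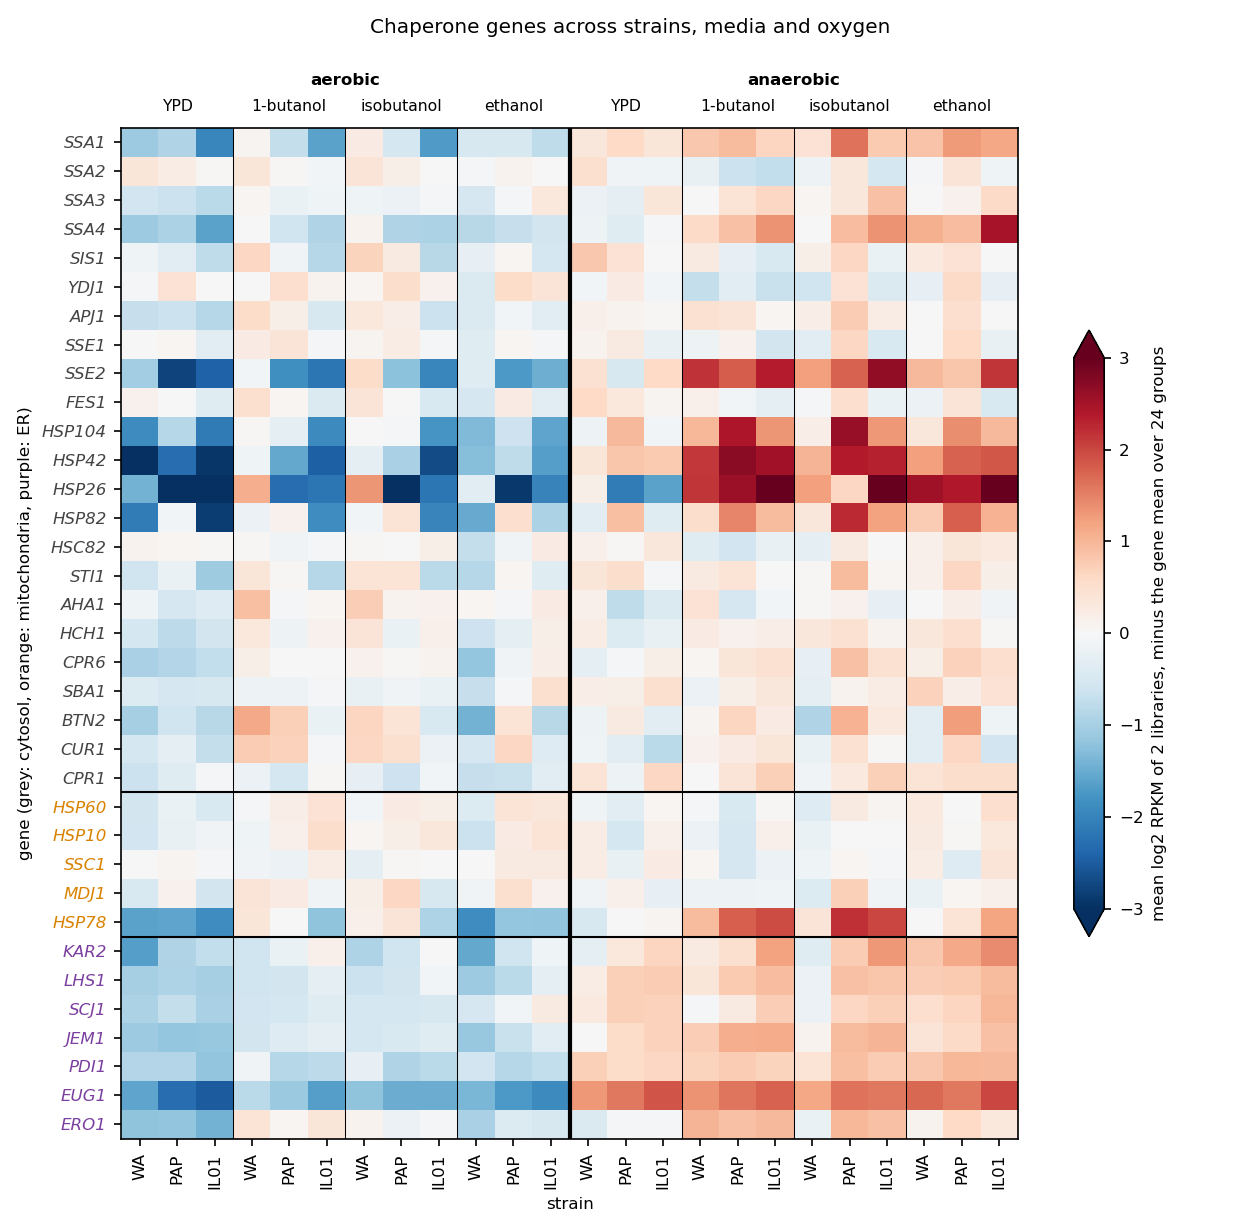
Heat map of the 35 chaperone genes (rows, by compartment) in the 24 groups (columns: oxygen, medium and strain); colour is the mean log2 RPKM of 2 libraries minus the mean of the gene over all groups, and values beyond 3 in either direction take the end colour. HSP26, HSP42, SSE2, HSP104, HSP82 and EUG1 have the strongest colours, and SSC1, HSP60, HSC82 and FES1 (1.85- to 2.16-fold range) are nearly uniform.

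Loss of oxygen in YPD went with higher expression of the 7 ER genes and of 12 cytosolic genes, HSP42 and SSE2 among them, whereas SSA2, HSC82, HSP60 and HSP10 did not pass. EUG1 was 13.1-fold and HSP42 10.5-fold higher without oxygen. Of the 35 genes 20 rose and 0 fell (limma, Benjamini-Hochberg adjusted over 5630 genes, FDR under 1%), beside 25.3% of all genes tested that rose and 14.0% that fell, and 27 members were higher at an unadjusted p under 0.05 and 0 lower. By compartment, 7 of 7 ER genes, 12 of 23 cytosolic genes and 1 of 5 mitochondrial genes rose. The median log2 difference was 1.54 in the ER, 0.75 in the cytosol and 0.24 in mitochondria, against 0.27 over all genes tested. Relative to that all-gene shift the ER genes stood 1.27 higher, the cytosolic genes 0.49 higher and the mitochondrial genes 0.03 lower (-0.03). With quantile normalization, which removes the shift, the count was again 20 but the set was not the same. There the cytosolic SSA4 lost its call (log2 0.51) and the mitochondrial HSP10 gained one (0.32). The count was 18 without the 3 libraries with few reads in genes.

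In the ER, EUG1 (YDR518W) was at 19.8, 23.99 and 40.8 RPKM (lowest, median and highest of the 6 aerobic libraries) and at 284, 358 and 437 RPKM in the 6 anaerobic ones, a log2 difference of 3.71 (SE 0.13, adjusted p = 1.4e-09 in limma). Its aerobic and anaerobic libraries were far apart in each strain. PDI1 (YCL043C), the main disulfide isomerase, went from 358, 554 and 593 RPKM to 1406, 1616 and 1733 RPKM, a log2 difference of 1.61 (SE 0.13, adjusted p = 1.5e-06 in limma). The groups of PDI1 did not overlap, and those of the other ER genes did not either. The share of all genes tested without overlap is not given here or below. A lack of overlap thus describes single genes and does not set the members apart from all genes. The Hsp70 co-factor LHS1 (log2 1.54), the J-proteins JEM1 (1.54) and SCJ1 (1.45), the Hsp70 KAR2 (1.32) and the oxidase ERO1 (YML130C, 1.08) rose as well. KAR2 ran from 325 to 669 RPKM with oxygen and from 841 to 1646 RPKM without it. The summed RPKM of the 7 ER genes made up 0.118% to 0.144% of that of all genes in the aerobic YPD libraries and 0.401% to 0.587% in the anaerobic ones.

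Among cytosolic genes HSP42, SSE2, HSP26 and HSP104 had the largest changes. HSP42 was at 2.03, 4.88 and 6.27 RPKM with oxygen and at 32.5, 39.9 and 59.7 RPKM without it (log2 3.39, SE 0.29, adjusted p = 3.3e-06 in limma). SSE2, a nucleotide exchange factor, went from 1.72, 2.35 and 7.13 RPKM to 7.94, 17.1 and 19.4 RPKM (log2 2.27, SE 0.21, adjusted p = 6.7e-06 in limma). HSP104 went from 20.9, 36.8 and 63.5 RPKM to 83.8, 115 and 291 RPKM (log2 1.87, SE 0.21, adjusted p = 2.3e-05 in limma). The aerobic and anaerobic libraries of these 3 genes did not overlap. HSP26 rose from 0.528, 1.02 and 4.86 RPKM to 2.58, 3.77 and 14.3 RPKM (log2 1.90, SE 0.29, adjusted p = 0.00027 in limma), with WA highest in both conditions, so that the groups overlapped across strains.

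The Hsp70 and Hsp90 pairs of the cytosol each had 1 member that rose and 1 that did not pass. SSA1 rose from 76.5, 152 and 205 RPKM to 398, 424 and 613 RPKM (log2 1.76, SE 0.13, adjusted p = 9.6e-07 in limma), while its close copy SSA2 had a log2 difference of -0.12 (95% interval -0.41 to 0.16), which was 0.29 with quantile normalization. HSP82, the Hsp90 gene known to respond to stress, rose from 21.96, 49.95 and 197 RPKM to 137, 181 and 478 RPKM (log2 1.75, SE 0.18, adjusted p = 1.5e-05 in limma), and the constitutive HSC82 (YMR186W) had a log2 difference of 0.12 (95% interval -0.21 to 0.44). Both genes of the HSP82 pair are read well apart, since they share 0.69% of their 100-base words. The mitochondrial disaggregase HSP78 rose from 5.55, 9.05 and 11.2 RPKM to 17.7, 25.4 and 32.7 RPKM (log2 1.56). HSP60, HSP10, MDJ1 and SSC1 did not pass, with log2 differences of 0.27, 0.24, 0.22 and 0.06. The calls of SSA4 (log2 1.02), STI1 (0.90) and HCH1 (0.48) were lost on leaving out 9, 8 and 7 of the 12 libraries in turn.

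Other folding genes were counted from fixed lists, beside the 25.3% of all genes tested that rose and the 14.0% that fell. In the ER, 6 of 9 further folding factors rose without oxygen, led by MPD1, a disulfide isomerase family member (log2 1.63), and SIL1, an exchange factor of KAR2 (1.26). Of 5 regulators 3 rose, MSN4 (2.07), HSF1 (1.13) and HAC1 (0.80). The groups of MSN4 overlapped, at 3.02 to 12.1 RPKM with oxygen and 11.0 to 63.6 without it. On leaving out each library in turn the change of HSF1 ran from 0.88 to 1.37, and its call was not kept throughout. The ribosome-bound Hsp70 genes SSB1 (log2 -1.15) and SSB2 (-0.62), which share 31.84% of their 100-base words, fell, and they were 2 of 6 ribosome-bound chaperones tested. With quantile normalization SSB1 was called at -0.61 and the call of SSB2 was lost (-0.08). None of 14 genes of the cytosolic chaperonin CCT and of prefoldin passed, with 1 at an unadjusted p under 0.05, and 0 of 6 further mitochondrial chaperones passed, with 2 at an unadjusted p under 0.05. With quantile normalization 4 of the 14 passed, all lower, namely TCP1 (log2 -0.42), CCT5 (-0.40), PAC10 (-0.48) and GIM5 (-0.51). The mitochondrial TCM62 (-0.60) and the ribosome-bound SSZ1 (-0.35) were also called lower there.

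**Figure D2:**
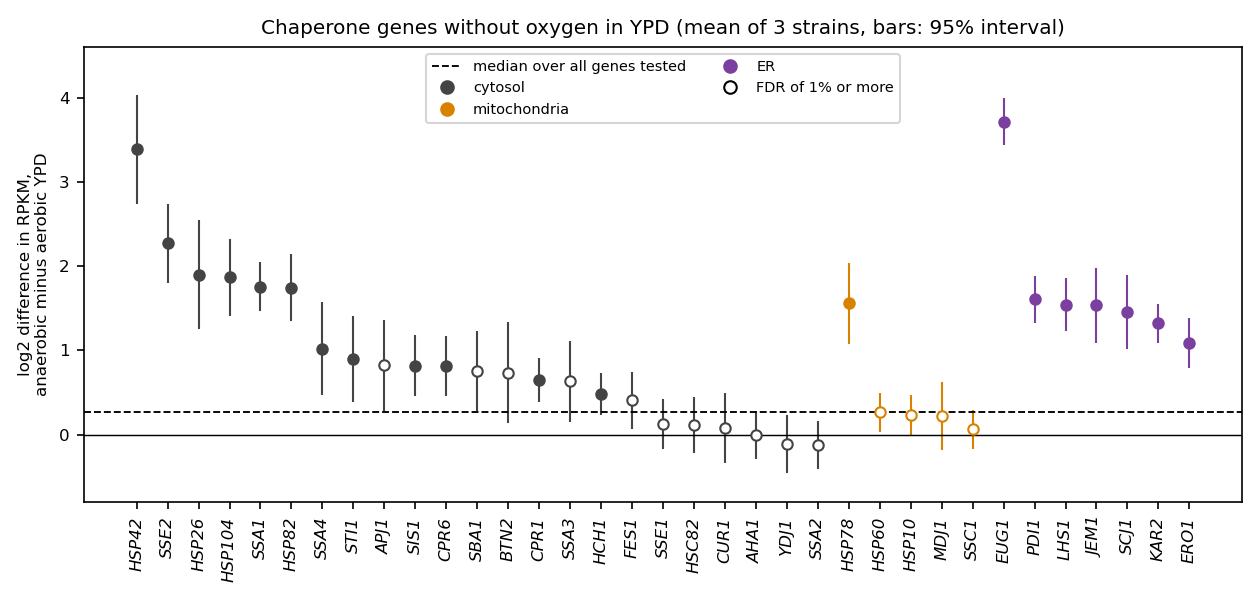
Log2 difference in RPKM between anaerobic and aerobic YPD (y axis, mean over 3 strains, bars the 95% interval) for each chaperone gene (x axis), with filled points for FDR under 1% and a dashed line at the median over all genes tested (0.27). The 7 ER genes and HSP78 stand at 1.08 or more, HSP42 reaches 3.39 and EUG1 3.71, and SSA2, HSC82 and the chaperonin genes lie near 0.

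HSP82 was the member that passed the joint test of the 3 strains in YPD, and it did so with oxygen. It was at 197 and 183 RPKM in the replicates of PAP, 64.01 and 34.7 RPKM in WA and 21.96 and 35.9 RPKM in IL01. PAP was the highest strain in both replicates, and WA and IL01 overlapped. Of the 35 members it was the 1 to pass (adjusted p = 0.00084 in limma), beside 3.77% of all genes, and 7 members had an unadjusted p under 0.05. Against the mean of the strains it was 1.59 log2 units higher in PAP (SE 0.18, adjusted p = 0.00056 in limma) and 1.17 lower in IL01 (log2 -1.17, adjusted p = 0.0049 in limma), where it was the 1 member to pass in each, beside 1.05% of genes higher in PAP and 1.19% lower in IL01. The joint call was lost without either of the PAP libraries and rose to 6 members without WA replicate 1 and to 5 without WA replicate 2. It was 4 without the replicate block, 4 with quantile normalization and 4 with the scaling to reads in genes.

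HSP26 stood apart in WA, at 3.62 and 4.86 RPKM, against 1.11 and 0.528 in PAP and 0.599 and 0.938 in IL01, each in aerobic YPD. Its distance from the mean of the strains was 1.65 log2 units (SE 0.29, adjusted p = 0.0079 in limma, beside 1.60% of genes higher in WA), and this call was lost on leaving out 9 of the 12 libraries in turn. Without oxygen 0 members passed the joint test in limma, beside 6.38% of all genes, with 10 at an unadjusted p under 0.05 and a lowest adjusted p of 0.017, for KAR2. The count was 5 without WA replicate 1 or 2 of aerobic YPD, which share the fit, 1 without either IL01 replicate of aerobic YPD, 7 with quantile normalization, 3 without the replicate block and 2 with the scaling to reads in genes. In anaerobic YPD the KAR2 level of WA was 841 and 846 RPKM, that of PAP 1437 and 1119 and that of IL01 1646 and 1522. WA was thus the lowest strain in this set as well as in aerobic YPD, where it had 325 and 327 RPKM against 533 to 669 in the other strains. The abundant members SSA2, CPR1, PDI1 and HSC82 did not pass in either condition.

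With oxygen, both butanols raised the mitochondrial disaggregase HSP78, the ER oxidase ERO1, and the Hsp90 gene HSP82 with the co-chaperones CPR6, HCH1 and AHA1. HSP26 also rose in both over the strains, but in isobutanol its PAP values stayed within those of YPD. In 1-butanol 12 of 35 members rose and 0 fell, beside 8.22% of all genes that rose and 2.40% that fell (5582 tested), and in isobutanol 14 rose and 0 fell, beside 7.99% and 2.43% (5595 tested). At an unadjusted p under 0.05 they were 26 higher and 0 lower in each. The 12 were 6 of 23 cytosolic, 3 of 5 mitochondrial and 3 of 7 ER genes, and the 14 were 8, 3 and 3. The median log2 change was 0.59 in 1-butanol and 0.62 in isobutanol, against 0.22 and 0.18 over all genes tested. The 3 alcohols share the same YPD libraries, and each is given with its own values.

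In aerobic YPD WA had 59.3 and 53.8 RPKM of ERO1, PAP 54.8 and 59.8 and IL01 40.0 and 58.7. In 1-butanol it was at 188 and 158 RPKM, 109 and 167, and 141 and 196 in the same order, and in isobutanol at 132 and 148, 108 and 124, and 112 and 141. Each alcohol library was above each YPD library. The log2 change was 1.54 in 1-butanol (SE 0.13, adjusted p = 8.3e-05 in limma) and 1.23 in isobutanol (SE 0.10, adjusted p = 4.5e-05 in limma). KAR2 rose from 325 to 669 RPKM in YPD to 648 to 1216 in 1-butanol (log2 0.88, SE 0.09, adjusted p = 0.0002 in limma) and to 527 to 1057 in isobutanol (log2 0.59), and EUG1 rose by 0.93 and 0.72 log2 units. None of the other ER genes passed (unadjusted p under 0.05 for 3 of them, PDI1, LHS1 and JEM1, in each alcohol), and of 9 further ER folding factors the prolyl isomerases FPR2 (log2 0.61 in each) and CPR5 (0.42 and 0.34) rose in both.

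In mitochondria HSP78 was at 5.55, 9.05 and 11.2 RPKM in YPD (lowest, median and highest), at 8.86, 26.7 and 40.1 in 1-butanol and at 11.2, 30.1 and 35.5 in isobutanol. IL01 was the lowest strain in both alcohols, with 8.86 and 15.8 RPKM in 1-butanol and 11.2 and 18.2 in isobutanol. The log2 change was 1.41 (SE 0.23, adjusted p = 0.0028 in limma) and 1.55 (SE 0.20, adjusted p = 0.00078 in limma). HSP60 (log2 0.59 and 0.51) and HSP10 (0.48 and 0.49) rose in both, from 358 to 482 RPKM in YPD to 513 to 768 and 499 to 753 RPKM for HSP60. SSC1 and MDJ1 did not pass.

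In the cytosol HSP26 had the largest change, but at low levels. In WA it was at 3.62 and 4.86 RPKM in YPD, 21.9 and 26.1 in 1-butanol and 27.5 and 28.5 in isobutanol, whereas in PAP it was at 1.11 and 0.528, 1.94 and 2.78, and 0.792 and 1.09, and in IL01 at 0.599 and 0.938, 2.26 and 2.78, and 2.21 and 2.88. Its log2 change over the strains was 1.95 (SE 0.26, adjusted p = 0.0010 in limma) in 1-butanol and 1.59 (SE 0.26, adjusted p = 0.0026 in limma) in isobutanol. The WA libraries stood above those of the other strains in every aerobic medium. In PAP the isobutanol values lay between the YPD values, and the YPD values of PAP and IL01 rest on 3 to 7 reads. HSP82 rose by 1.03 (SE 0.19, adjusted p = 0.0049 in limma) and 1.12 (SE 0.18, adjusted p = 0.0022 in limma), the co-chaperones CPR6 by 0.92 and 0.96, HCH1 by 0.72 and 0.74 and AHA1 by 0.64 and 0.66, and SSA1 by 0.57 and 0.67. CPR6, an Hsp90-bound prolyl isomerase, went from 87.4 to 160 RPKM in YPD to 174 to 248 and 190 to 240 RPKM, and HCH1, an activator of Hsp90, from 204 to 274 RPKM to 292 to 484 and 299 to 495 RPKM. The alcohol and YPD libraries of CPR6 and HCH1 did not overlap. HSP104 (log2 1.01, SE 0.20, adjusted p = 0.0067 in limma) and SSE2 (1.21, SE 0.19, adjusted p = 0.0018 in limma) passed in isobutanol, and whether they differ from 1-butanol is given below.

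In the joint test of whether strains differed in these changes, 0 members passed in 1-butanol in limma, with 8 at an unadjusted p under 0.05 and a lowest adjusted p of 0.17, beside 0.161% of all genes, and in isobutanol 0, with 6 and 0.24, beside 0.214% (2 without WA YPD replicate 1). The count in 1-butanol rose from 12 to 25 and that in isobutanol from 14 to 26 without WA replicate 1 of aerobic YPD, and the latter fell to 7 and 8 without WA isobutanol replicates 1 and 2. Of the calls above, those of SSA1 and HSP82 in 1-butanol were lost without 9 of 12 libraries in turn and that of HSP104 in isobutanol without 8. The WA replicate 1 library had 64.01 RPKM of HSP82 and 42.7 of HSP104 against 34.7 and 21.0 in replicate 2.

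In ethanol at 4% with oxygen ERO1 and HSP60 rose, 2 of 35, beside 5.53% of all genes that rose (5619 tested). In the other direction 0 fell, beside 1.37%. At an unadjusted p under 0.05, 21 members were higher and 1 lower. The all-gene share at that cut is not given, and the median change over all genes tested was itself 0.22 log2 units. ERO1 was at 63.7, 78.5 and 118 RPKM (lowest, median and highest of 6), above all the YPD libraries (log2 0.64, SE 0.13, adjusted p = 0.0089 in limma). HSP60 was at 407, 622 and 842 RPKM against 358, 405 and 482 (log2 0.51, SE 0.09, adjusted p = 0.0052 in limma), with WA at 407 and 408 RPKM, inside the range of YPD. The most abundant members that did not pass were SSA2 (log2 -0.20, 95% interval -0.41 to 0.00) and HSC82 (-0.27, -0.56 to 0.03). The regulator MSN4 rose (log2 1.55), and SSB1 fell in all 3 alcohols with oxygen (log2 -0.36 in 1-butanol, -0.41 in isobutanol and -0.42 in ethanol), calls that were lost with quantile normalization (-0.22, -0.28 and -0.24). The count depended on single libraries, since it was 19 without WA replicate 1 and 7 without WA replicate 2 of aerobic YPD, 0 without any of 7 other libraries (PAP YPD replicates 1 and 2, IL01 YPD replicate 1, WA ethanol replicate 1, PAP ethanol replicates 1 and 2 and IL01 ethanol replicate 2) and 1 without WA ethanol replicate 2. It was 4 without the replicate block, where the call of ERO1 was lost, 5 with quantile normalization and 9 with the scaling to reads in genes. The joint test of strains gave 0 members in limma, with 6 at an unadjusted p under 0.05, a lowest adjusted p of 0.33 and 0% of all genes, and 4 members without WA YPD replicate 2.

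Without oxygen HSP26 had the largest change of the members in each alcohol. It was followed by SSE2, HSP42 and HSP78 in 1-butanol, by SSE2, HSP78 and HSP42 in isobutanol and by SSA4, SSE2 and HSP82 in ethanol. In 1-butanol 10 members rose and 2 fell, beside 20.2% of all genes that rose and 7.11% that fell (5682 tested). The 10 were 7 of 23 cytosolic, 1 of 5 mitochondrial and 2 of 7 ER genes, and the median over the members was 0.21 log2 units against 0.17 over all genes. In isobutanol 8 rose and 0 fell, 6 cytosolic, 1 mitochondrial and 1 ER gene, beside 11.3% of all genes that rose and 2.58% that fell (5694 tested), with a median of 0.22 against 0.11. In ethanol at 3%, over PAP and IL01, 9 rose and 0 fell, 8 cytosolic and 1 ER gene, beside 3.98% of all genes that rose and 1.20% that fell (5650 tested), with a median of 0.37 against 0.03. At an unadjusted p under 0.05, 13, 13 and 18 members were higher and 5, 0 and 0 lower. With the scaling to reads in genes 12 rose and 5 fell in 1-butanol. Without the 3 libraries with few reads in genes 6 rose in isobutanol, the calls of SSA4 and ERO1 being lost.

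In anaerobic YPD WA had 14.3 and 11.4 RPKM of HSP26, PAP 2.72 and 2.58 and IL01 4.55 and 3.00. In 1-butanol it was at 52.5 and 47.9, 66.4 and 66.1, and 562 and 149 RPKM, in isobutanol at 20.1 and 34.3, 26.9 and 11.3, and 1712 and 56.3 RPKM, and in ethanol at 54.1 and 78.9, 63.7 and 56.5, and 344 and 287 RPKM. Every 1-butanol and ethanol library lay above every YPD library, and the replicates of IL01 in isobutanol differed 30.4-fold. The log2 change in 1-butanol over the strains was 4.30, a 19.7-fold difference (SE 0.19, adjusted p = 6.7e-21 in limma). For this gene the spread that limma used was 0.336 log2 units, below the 0.511 of its own residuals, so its standard error there is a lower value than its own libraries give. In isobutanol the log2 change was 3.38 (SE 0.50, adjusted p = 0.00021 in limma), and 2.61 without IL01 replicate 1 and 4.16 without replicate 2. With a robust empirical Bayes fit, chosen after this spread was seen, its adjusted p was 0.026 in limma and the call was lost.

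The disaggregase genes HSP78 and HSP104 rose in both butanols, as did SSE2, HSP42, SSA4 and HSP82. The 1-butanol p-values rest mostly on a spread pooled over all genes (35.3 degrees of freedom, against 5 of the gene itself). HSP78 was at 17.7, 25.4 and 32.7 RPKM in anaerobic YPD, at 49.3, 94.4 and 109 in 1-butanol and at 30.7, 101 and 140 in isobutanol, and the log2 change was 1.70 (SE 0.16, adjusted p = 2.6e-11 in limma) and 1.65 (SE 0.15, adjusted p = 2.2e-06 in limma). WA had the lowest HSP78 in both butanols, with 49.3 and 56.9, and 30.7 and 41.2 RPKM. SSE2 went from 7.94, 17.1 and 19.4 RPKM to 39.2, 50.9 and 83.4 in 1-butanol (log2 1.91, SE 0.17, adjusted p = 2.7e-12 in limma) and to 25.7, 42.1 and 128 in isobutanol (1.69, SE 0.19, adjusted p = 2.1e-05 in limma), with no overlap. HSP42 went from 32.5, 39.9 and 59.7 RPKM to 112, 150 and 176 (log2 1.79, SE 0.16, adjusted p = 6.5e-12 in limma) and, with an overlap through WA, to 46.6, 110 and 180 (1.25, SE 0.17, adjusted p = 0.00011 in limma). HSP104 rose by 1.33 (SE 0.17, adjusted p = 4.6e-08 in limma) and 1.12 (SE 0.17, adjusted p = 0.00026 in limma), and PAP was the highest strain, at 573 and 618 RPKM in 1-butanol and 771 and 592 in isobutanol, against 291 and 162 in its YPD libraries. SSA4, an Hsp70 that is scarce without stress, rose by 1.12 (SE 0.19, adjusted p = 8.3e-06 in limma) and 0.95 (SE 0.18, adjusted p = 0.0014 in limma), and HSP82 by 0.91 (SE 0.18, adjusted p = 8.1e-05 in limma) and 1.19 (SE 0.17, adjusted p = 0.00013 in limma). Without IL01 isobutanol replicate 1 and without replicate 2 the isobutanol changes were 1.61 and 1.70 for HSP78 and 1.48 and 1.90 for SSE2. They were 1.12 and 1.38 for HSP42, 1.04 and 1.21 for HSP104, 0.79 and 1.11 for SSA4 and 1.14 and 1.24 for HSP82. These refits leave 1 library in that group, so the changes alone are given.

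In the ER, ERO1 was at 91.5 to 134 RPKM in anaerobic YPD and 173 to 377 in 1-butanol, without overlap (log2 1.15, SE 0.17, adjusted p = 9.6e-07 in limma), and at 98.5 to 349 in isobutanol (0.74, SE 0.17, adjusted p = 0.0055 in limma). Without IL01 isobutanol replicate 1 or 2 the isobutanol change was 0.92 or 0.57. The isobutanol call was lost on leaving out 8 of 12 libraries in turn. JEM1 (log2 0.57) and the sorting factor CUR1 (0.67) rose in 1-butanol, where the J-proteins YDJ1 (log2 -0.60) and SIS1 (-0.56), partners of the SSA proteins, fell. The calls of JEM1, SIS1 and YDJ1 were lost without 10, 10 and 9 of the 12 libraries in turn. Among other lists, MSN4 rose in 1-butanol (1.799), isobutanol (1.49) and ethanol (1.23), and TCM62, a mitochondrial assembly factor related to HSP60, in both butanols (0.69 and 0.61, the latter call lost with quantile normalization at 0.44). The prefoldin subunit PAC10 fell in both (log2 -0.91 and -0.97), and SSB1 in 1-butanol (-0.85).

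In ethanol without oxygen, PAP and IL01 were fitted apart from WA, whose ethanol cultures in this condition are described on their own. HSP26 was at 56.5 to 344 RPKM in the 4 ethanol libraries and 2.58 to 4.55 in the 4 YPD libraries, a log2 change of 5.46 and a 43.9-fold difference (SE 0.17, adjusted p = 7.8e-10 in limma). SSA4 was at 14.5 and 15.6 RPKM in PAP and 39.2 and 48.2 in IL01, against 4.95 to 8.33 in YPD (log2 1.91, SE 0.20, adjusted p = 7.4e-05 in limma). SSE2 (1.43, SE 0.17, adjusted p = 0.00014 in limma), HSP82 (1.15, SE 0.15, adjusted p = 0.00046 in limma), HSP42 (1.01, SE 0.17, adjusted p = 0.0022 in limma), SSA1 (0.74), AHA1 (0.64) and HCH1 (0.59) rose in the cytosol, the last 2 with calls lost without 8 of the 10 libraries of the fit in turn. The ER Hsp70 KAR2 rose from 1119 to 1646 RPKM to 2187 to 2788 RPKM, without overlap (log2 0.80, SE 0.13, adjusted p = 0.0015 in limma), and 0 of 5 mitochondrial genes passed in limma, with 3 at an unadjusted p under 0.05. The count was 15 without PAP YPD replicate 1 and 4 or 5 without IL01 YPD replicate 1, IL01 YPD replicate 2 or PAP ethanol replicate 2 (4, 5 and 4).

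**Figure D3:**
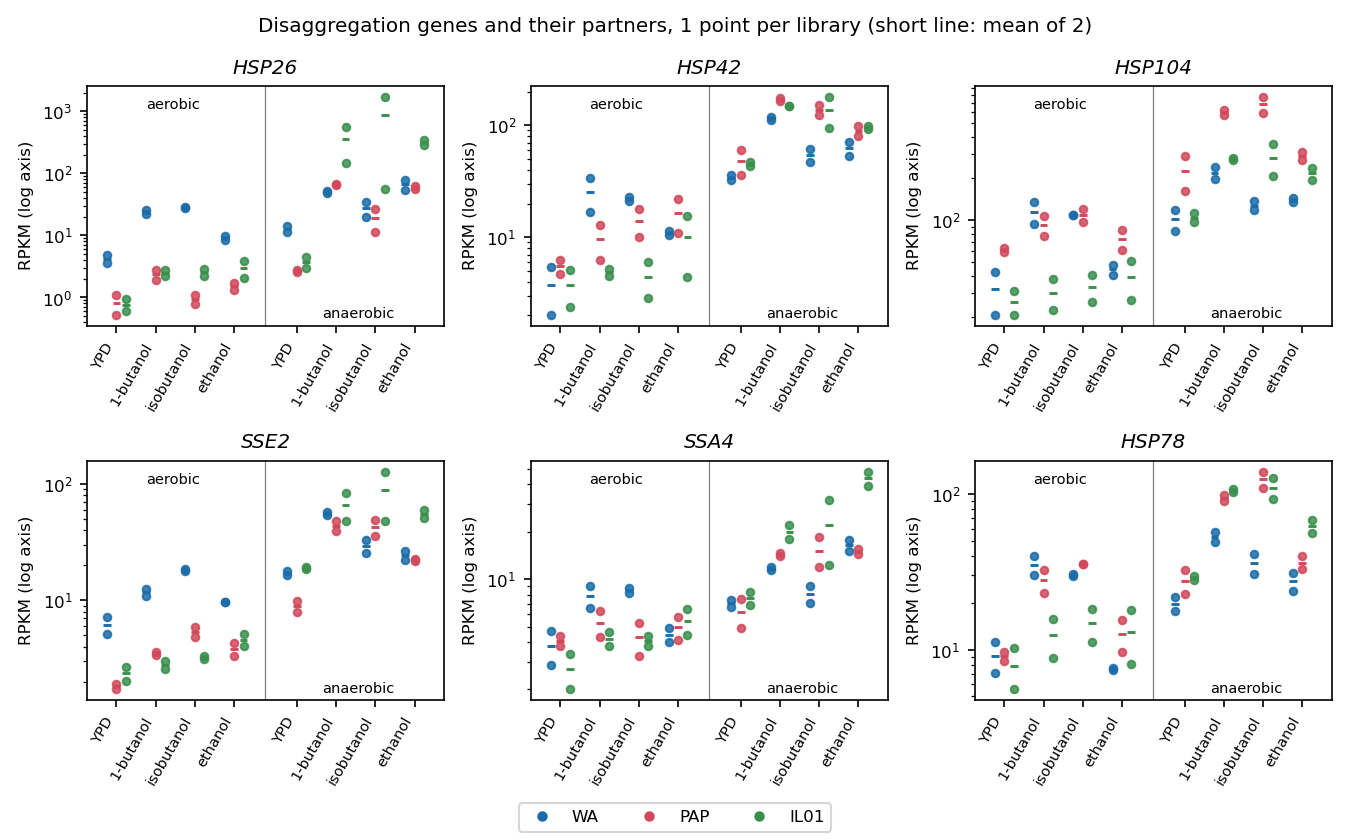
RPKM (y axis, log scale) of HSP26, HSP42, HSP104, SSE2, SSA4 and HSP78 in each of the 48 libraries, by medium and oxygen (x axis) and strain (colour), with a short line at the mean of 2 replicates. All 6 genes are higher in anaerobic than in aerobic YPD over the strains, HSP26 is highest in IL01 in the anaerobic alcohols with a gap between the isobutanol replicates (1712 and 56.3 RPKM), and HSP78 stays near its YPD range in aerobic ethanol.

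The WA ethanol libraries without oxygen carried the anaerobic markers (ANB1 at 2863 and 3078 RPKM, CYC1 at 0 in both). In WA alone 4 members rose in ethanol, beside 5.45% of all genes, namely HSP26 (log2 2.35, SE 0.26, adjusted p = 2.6e-06 in limma), SSA4 (1.21), KAR2 (1.07) and HSP82 (1.07). HSP26 went from 14.3 and 11.4 RPKM to 54.1 and 78.9 RPKM and KAR2 from 841 and 846 to 1716 and 1824 RPKM. The HSP26 response of WA was smaller than the mean response of PAP and IL01 by 3.10 log2 units (difference -3.10, SE 0.31, adjusted p = 2.3e-06 in limma), the 1 member to pass in this test, beside 2.58% of all genes with a smaller response. At an unadjusted p under 0.05 the response of 7 members was lower and of 1 higher. The count of members was 6 without PAP YPD replicate 1, 2 without PAP YPD replicate 2, 4 with quantile normalization, 3 with the scaling to reads in genes and 2 without the 3 libraries with few reads in genes. With WA included, 12 members rose in ethanol without oxygen, beside 7.95% of all genes, and HSP26 changed by 4.42.

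Strain modified the response of HSP26 without oxygen. In 1-butanol WA changed by 1.97 log2 units, PAP by 4.65 and IL01 by 6.29, and the joint test of strains had an adjusted p of 7.9e-08 in limma, the 1 member to pass beside 2.32% of all genes. This call was lost with quantile normalization, with the scaling to reads in genes (adjusted p = 0.011 in limma) and without WA 1-butanol replicate 1 alone or all 3 libraries with few reads in genes (adjusted p = 0.029 in limma), and its spread in limma was again the 0.336 given above. In ethanol the changes were 2.35, 4.50 and 6.41, and HSP26 was again the 1 member to pass (adjusted p = 1.8e-06 in limma), beside 4.30% of all genes. The count in ethanol was 9 without PAP YPD replicate 1, 2 without PAP YPD replicate 2, 4 with quantile normalization, 3 with the scaling to reads in genes and 2 without the 3 libraries with few reads in genes. In isobutanol the changes were 1.04, 2.72 and 6.39, the last being 4.08 without IL01 replicate 1 and 8.71 without replicate 2, and 0 members passed the joint test in limma, with 7 at an unadjusted p under 0.05, a lowest adjusted p of 0.12 and 0.404% of all genes. Leaving out either IL01 isobutanol replicate changed that count. These refits leave 1 library in that group, so their counts are not given. In YPD itself WA had the highest HSP26, so the levels in the alcohols lay closer together between WA and PAP than the changes did.

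Within strains, WA had 5 members that rose in anaerobic 1-butanol, beside 2.46% of all genes in that strain, PAP 6, beside 16.1%, and IL01 8, beside 5.30%. SSE2, HSP42 and HSP78 rose in each of the strains, by 1.70, 2.29 and 1.74 for SSE2, 1.76, 1.88 and 1.73 for HSP42 and 1.43, 1.78 and 1.89 for HSP78 in WA, PAP and IL01. In anaerobic isobutanol 0 members passed in WA in limma, beside 0.825% of its genes that rose, with 7 at an unadjusted p under 0.05. In PAP 5 rose, beside 5.13%, and in IL01 6, beside 2.77%. These counts were not tested against each other, and the joint test of strains passed for HSP26 alone among the members in 1-butanol and ethanol.

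The 1-butanol response of 3 members differed between the oxygen conditions by the test of the difference itself. HSP26 responded by 2.35 log2 units more without oxygen (SE 0.35, adjusted p = 0.00017 in limma) and SSE2 by 1.19 more (SE 0.23, adjusted p = 0.0017 in limma), beside 4.03% of all genes, and EUG1 by 0.95 less (difference -0.95, SE 0.18, adjusted p = 0.0016 in limma), beside 2.34%. EUG1 rose in 1-butanol with oxygen, from 19.8 to 40.8 RPKM to 33.4 to 70.5, and without oxygen stood at 284 to 437 RPKM in YPD and 266 to 468 in 1-butanol. At an unadjusted p under 0.05 the response without oxygen was larger for 2 members and smaller for 13. With quantile normalization 2 passed in each direction, with the scaling to reads in genes 2 were larger and 4 smaller, and without WA YPD replicate 1 with oxygen or IL01 1-butanol replicate 2 without oxygen 2 were larger and 3 smaller. For isobutanol 0 members passed in limma, beside 1.76% and 1.30% of all genes, with 9 at an unadjusted p under 0.05 and a lowest adjusted p of 0.017, for EUG1 (difference -0.85). There, 1 passed with the scaling to reads in genes. The count also changed without IL01 isobutanol replicate 2, WA YPD replicate 1 with oxygen or PAP YPD replicate 2 without oxygen. These refits leave 1 library in a group, so their counts are not given.

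1-butanol is a straight and isobutanol a branched alcohol with the same number of carbons, and ethanol is shorter. Their doses differed (0.8%, 1% and 3% or 4%), so the alcohol and its dose cannot be told apart in a difference between them. Between the butanols 0 of 35 members passed in limma in either oxygen condition, beside 0.997% of all genes higher in 1-butanol and 1.91% lower with oxygen, and 0.580% and 0.457% without it. At an unadjusted p under 0.05 they were 4 and 6. The 95% interval of the difference lay within 0.5 log2 units of 0 for 24 members with oxygen and 20 without it, and within 1 unit for 34 in each. KAR2 was 0.29 higher in 1-butanol with oxygen (95% interval 0.10 to 0.47, adjusted p = 0.072 in limma), SSE2 had a difference of -0.49 with oxygen (-0.81 to -0.17, adjusted p = 0.075) and HSP42 of 0.54 without oxygen (0.22 to 0.86, adjusted p = 0.071). For HSP26 the interval was widest, -0.06 to 1.90 without oxygen, and for HSP78 it was -0.58 to 0.29 with oxygen and -0.24 to 0.33 without. The anaerobic count changed without IL01 isobutanol replicate 1, a refit that leaves 1 library in that group, so its count is not given.

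**Figure D4:**
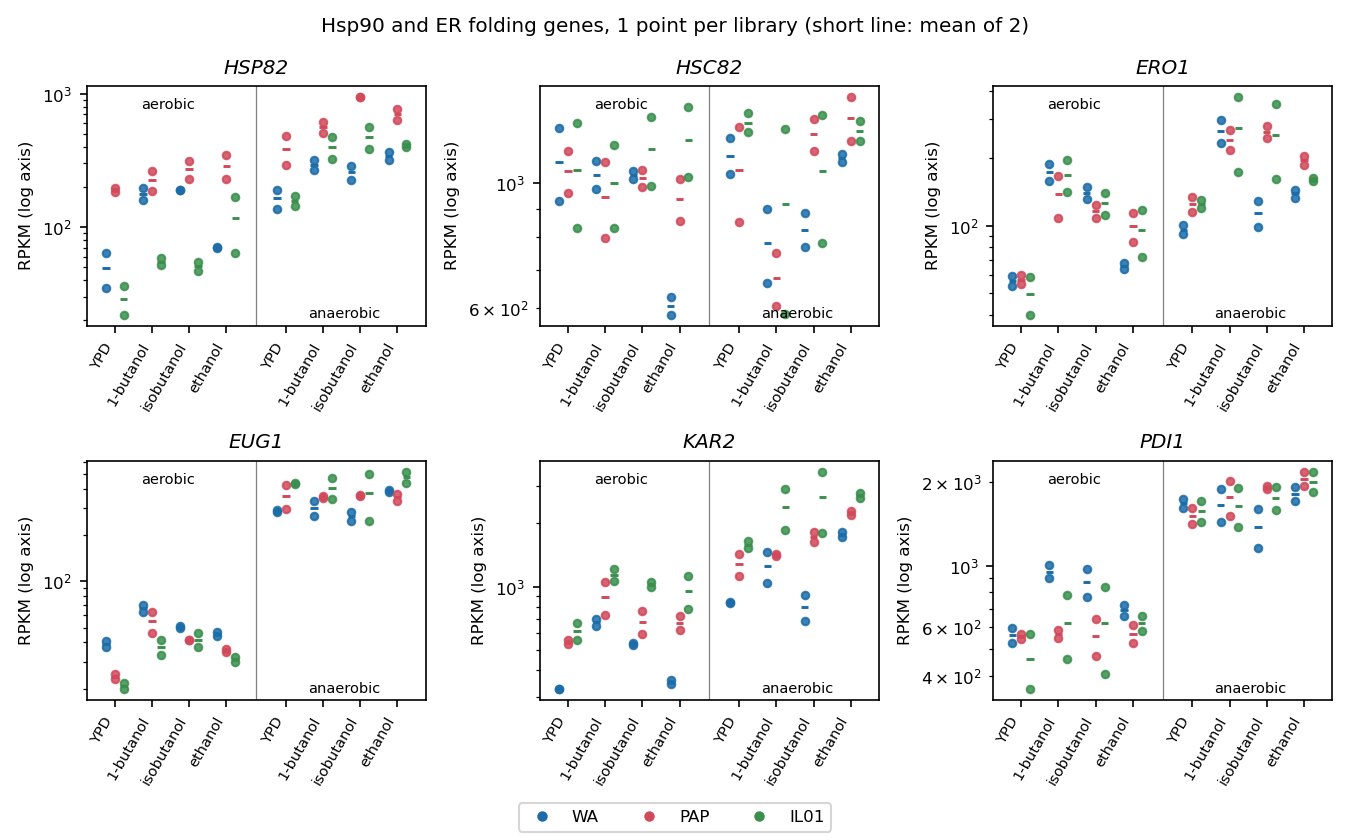
RPKM (y axis, log scale) of the Hsp90 genes HSP82 and HSC82 and the ER genes ERO1, EUG1, KAR2 and PDI1 in each of the 48 libraries, by medium and oxygen (x axis) and strain (colour), with a short line at the mean of 2 replicates. HSP82 is highest in PAP in aerobic YPD (197 and 183 RPKM) while HSC82 ranges 2.14-fold over all groups, and EUG1 and PDI1 are split by oxygen more than by medium.

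Set against ethanol, the butanols gave more HSP78 over the fitted strains in both oxygen conditions, but with oxygen the difference lay in WA and PAP. With oxygen 6 members were higher in the butanols and 0 lower, beside 7.41% and 6.16% of all genes (5615 tested): HSP78 (log2 1.19, SE 0.18, adjusted p = 0.00011 in limma), ERO1 (0.74, SE 0.10, adjusted p = 5e-05 in limma), KAR2 (0.39), EUG1 (0.37), HCH1 (0.35) and CPR1 (0.30). HSP78 was at 8.86, 29.9 and 40.1 RPKM in the 12 butanol libraries (lowest, median and highest) and at 7.38, 8.86 and 18.1 RPKM in the 6 ethanol libraries. The ranges overlapped through IL01, which had the lowest butanol value (8.86 RPKM) and the highest ethanol value (18.1 RPKM). IL01 was at 8.86 and 15.8 RPKM in 1-butanol, 11.2 and 18.2 in isobutanol and 8.04 and 18.1 in ethanol. In WA and in PAP each butanol library lay above each ethanol library of the strain. Whether the strains differ in this was not tested. With quantile normalization 9 were higher and 2 lower, and without WA YPD replicate 1 or 2 9 were higher and 1 lower.

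Without oxygen, over PAP and IL01, 3 members were higher in the butanols and 0 lower, beside 12.2% and 2.20% of all genes (5692 tested). HSP78 was at 90.3, 106 and 140 RPKM in the 8 butanol libraries and at 32.9, 47.8 and 68.2 RPKM in the 4 ethanol libraries, without overlap (log2 1.19, SE 0.14, adjusted p = 1.2e-05 in limma). HSP104 (0.74, SE 0.17, adjusted p = 0.0044 in limma) and HSP42 (0.66, SE 0.16, adjusted p = 0.0056 in limma) followed. With quantile normalization 2 were higher and 2 lower. The count of members rose without IL01 isobutanol replicate 1. It fell without PAP 1-butanol replicate 2, PAP isobutanol replicate 1, PAP ethanol replicate 1 or IL01 ethanol replicate 1. These refits leave 1 library in a group, so their counts are not given. In the joint plot of the conditions HSP78 is the 1 member past the threshold in both.

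**Figure D5:**
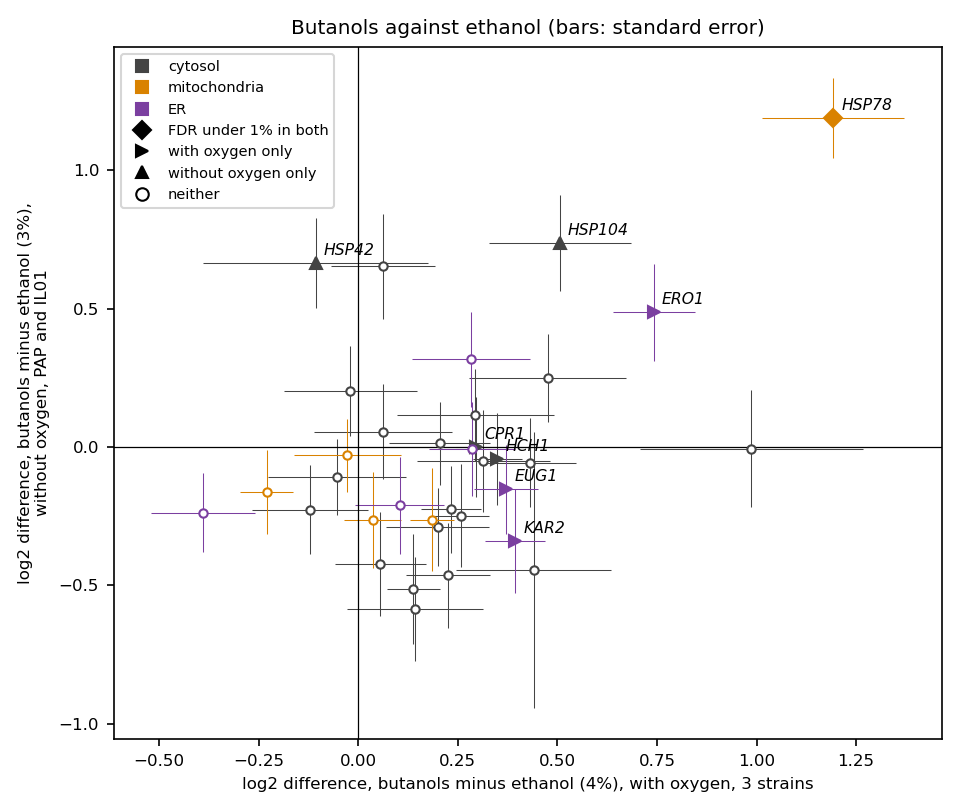
Log2 difference between the butanols and ethanol with oxygen (x axis, 3 strains, ethanol at 4%) and without oxygen (y axis, PAP and IL01, ethanol at 3%) for the 35 chaperone genes, with bars for the standard error, colour for the compartment and shape for the condition in which FDR was under 1%. HSP78 lies at 1.19 on both axes, ERO1 lies at 0.74 and 0.49, HSP104 at 0.51 and 0.74, and HSP26 at 0.44 and -0.44 with a wide bar.

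The balance between paralogues varied over the groups. The ratio of HSP82 to HSC82 ran from 0.0273 in IL01 in aerobic YPD to 0.829 in PAP in anaerobic 1-butanol, so that HSC82 stayed the more abundant on average in every group. SSA1 to SSA2 ran between the same groups, from 0.0653 to 0.777, with the reservation on shared reads given above. SSE2 to SSE1 ran from 0.00213 to 0.169 and EUG1 to PDI1 from 0.0432 to 0.276. SSA3 to SSA4, the scarce Hsp70 pair, ran from 0.382 to 2.77, the 1 pair among these 5 in which the more abundant gene changed between groups.

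Over the 24 group means of log2 RPKM the members most like one another were EUG1 and PDI1 (Pearson r = 0.976) and LHS1 and JEM1 (0.968), all in the ER. KAR2 was most like LHS1 (0.931). In the cytosol SSA1 was most like HSP42 (0.951), HSP104 most like HSP82 (0.937), SSE2 most like HSP42 (0.929) and HSP26 most like SSA4 (0.917), while the mitochondrial HSP78 was most like the cytosolic HSP104 (0.915) and HSP60 most like HSP10 (0.857). HSC82 had no close match (0.533 with HSP10). These are descriptions over groups that share strains, media and oxygen conditions, and they carry no test.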

How the data were processed

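RNA of 48 cultures was extracted with hot acid phenol, depleted of rRNA and made into stranded libraries. Per the study's methods, reads were trimmed (Trimmomatic), aligned with bwa mem to S288c R64 and counted per gene with HTSeq; the strand setting is not given in the sources used here. The authors deposited log2 RPKM, in which an exact 0 stands for no reads. Groups came from the sample labels, and 4 lines of the table were not analysed here. Of 6713 identifiers 6022 matched the R64 annotation, and overlap of members with the other 691 was not checked. No 2 libraries were identical.

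Genes whose mean RPKM in a comparison reached 1 were tested with limma 3.58.1 (R 4.3.3; trended empirical Bayes, Benjamini-Hochberg, FDR under 1%), after a check on simulated data. Replicates were collected on different days and paired by the study, so replicate number within oxygen condition was a block. Deviations of same-numbered libraries correlated by a median of 0.08 with oxygen (-0.39 to 0.55 over 66 pairs of groups) and 0.07 without (-0.35 to 0.73). In YPD each strain was compared with the average of all 3. With 2 replicates per group, p-values measure the spread between cultures, after limma has pooled the spread of each gene with that of all genes tested. In 1-butanol without oxygen the pooled part had 35.3 degrees of freedom and the gene itself 5.

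Members and lists were chosen with earlier results of these data known. Counts of members at an unadjusted p under 0.05 are given without the all-gene share at that cut. They do not show a response of the members beyond that of all genes. All 35 members were accounted for; named in each comparison were up to 8 called members of largest change (where under 4 passed, also the most abundant, up to 4) and up to 3 called genes of other lists. Alternatives were no block, no trend, quantile normalization, log2(RPKM + 1), no filter, all libraries and leaving out each library; robust empirical Bayes, scaling to reads in genes and leaving out the 3 libraries with the lowest share of them were chosen after seeing the data. Motifs were searched in R64 windows of 450 bases.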

Additional observations from a re-analysis of the deposited data

Results flagged for a closer look

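The response of HSP26 to alcohol without oxygen differed between strains by the test of the difference itself, in 1-butanol (adjusted p = 7.9e-08 in limma) and in ethanol (adjusted p = 1.8e-06 in limma). In 1-butanol the spread that limma used for this gene was 0.336 log2 units against 0.511 in its own residuals, and the call was lost with quantile normalization, with the scaling to reads in genes, without WA 1-butanol replicate 1 and without the 3 libraries with few reads in genes. Set against PAP and IL01 together, the response of WA to ethanol without oxygen was -3.10 log2 units. The 1-butanol response differed between the oxygen conditions for 3 members. Without oxygen it was larger by 2.35 log2 units for HSP26 and by 1.19 for SSE2, beside 4.03% of all genes. It was smaller for EUG1 (-0.95), beside 2.34%. No group was large enough for a test of single outlying libraries.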

How the results depend on the processing

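Of 66 results on single genes, none that has a direction changed it under the alternatives run. The joint tests of strains among them (HSP82 in YPD with oxygen, HSP26 in 1-butanol and in ethanol without oxygen) have no direction to change. Members that had not passed could turn sign with quantile normalization, in oxygen 3 of them, SSA2 (log2 -0.12 to 0.29), MDJ1 (0.22 to -0.05) and CUR1 (0.08 to -0.15). Of the 66, 65 kept their side of the threshold without the replicate block and 1, ERO1 in ethanol with oxygen, did not; 66 kept it with log2(RPKM + 1), 63 without the filter, 62 with quantile normalization, 55 without the trend, 65 with robust empirical Bayes and 65 with values scaled to reads in genes, and 39 of 42 kept it without the 3 libraries with few reads in genes. Leaving out 1 library at a time leaves 1 library in a group. Calls and counts from such refits, above and below, are therefore not a measure of stability. Without the replicate block the members called became 4 (from 1) for strains with oxygen, 3 (from 0) for strains without oxygen and 4 (from 2) for ethanol with oxygen, and the block changed no other count by over 1.5 times. With quantile normalization they were 4 and 7 for strains with and without oxygen, 5 for ethanol with oxygen, 0 and 4 for strain by 1-butanol and by ethanol without oxygen, 4 for the response of WA and 11 for butanols against ethanol with oxygen. With the scaling to reads in genes they were 4 and 2 for strains with and without oxygen, 9 for ethanol with oxygen, 0 and 3 for strain by 1-butanol and by ethanol without oxygen, 3 for the response of WA and 6 and 1 for 1-butanol and isobutanol by oxygen. Without the 3 libraries they were 0 and 2 for strain by 1-butanol and by ethanol without oxygen and 2 for the response of WA. With log2(RPKM + 1) they were 2 and 1 for strains with and without oxygen. For ethanol with oxygen 1 member passed without the filter and 1 without the trend, for ethanol without oxygen 4 without the trend, and for butanols against ethanol without oxygen 6 in all 24 libraries. The cause was not tested.

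Leaving out each library gave, from lowest to highest, 15 to 25 members for oxygen, 0 to 6 and 0 to 5 for strains with and without it, 8 to 25, 7 to 26 and 0 to 19 for 1-butanol, isobutanol and ethanol with oxygen, and 8 to 13, 6 to 10 and 4 to 15 without. For strain by alcohol the ranges were 0 to 0, 0 to 2 and 0 to 4 with oxygen, and 0 to 1, 0 to 5 and 1 to 9 without, with 1 to 6 for the response of WA. They were 3 to 5 and 0 to 3 for 1-butanol and isobutanol by oxygen, 0 to 0 and 0 to 2 for 1-butanol against isobutanol, and 5 to 10 and 1 to 6 for the butanols against ethanol, with and without oxygen. Depth limits the scarcest members, since HSP26 had as few as 3 reads in a library.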
